A study of Mus musculus with 16 samples.

Results

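The liver X receptors (LXRs) and the genes they control form the main route by which a cell answers a load of cholesterol, and 10 genes of this route were followed in cultured mouse microglia with and without Grn, the gene of progranulin. The genes were taken by symbol from the deposited gene table of 56980 genes: the receptors Nr1h2 and Nr1h3, the sterol exporters and carrier Abca1, Abcg1 and Apoe, the further genes of the set Cd5l, Smpdl3a and Lpcat3, and the lysosomal cholesterol proteins Npc1 and Npc2. All 10 were found, and all 10 passed the filter on low counts that left 12272 genes for testing. The libraries fall into 4 groups of 4: Grn knockout (KO) microglia kept for 72 h in 2 uM rimeporide, wild-type (WT) microglia kept for 72 h in 2 uM rimeporide, KO microglia in DMSO for 72 h, and WT microglia in DMSO for 72 h. Rimeporide is an inhibitor of sodium-proton exchangers and DMSO its vehicle; the series title names lysosomal acidification as the subject. The cells of all groups came from cortex and hippocampus of newborn (P1 to P3) mice, were grown as mixed glia and were shaken off, and the protocol names no sort. The labels do not name the strain or the stretch of Grn that was deleted. The labels speak of 4 biological replicates per genotype, without saying whether libraries of the same number in DMSO and rimeporide share a culture.

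LXRs are nuclear receptors that bind oxysterols and related sterols, pair with a retinoid X receptor and sit on a DNA repeat called DR4; without ligand they recruit corepressors, and with ligand they raise transcription of their targets. In macrophages and microglia the targets include the pumps that move cholesterol onto apolipoproteins, the apolipoprotein itself, and enzymes of phospholipid and fatty acid synthesis. Cholesterol that enters by endocytosis reaches this system only after the lysosome has released it, a step carried by NPC2 inside the lumen and NPC1 in the membrane.

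Cd5l, a secreted scavenger receptor-like protein of macrophages, and Abca1, the pump that loads lipid-poor apolipoproteins, are known LXR targets, and their promoters are shown because the first had the largest genotype difference among the 10 genes and the second was the one gene of the set whose promoter held a DR4 match. The 250 bases before the transcription start come from RefSeq on build GRCm38.p6, Abca1 on the minus strand at chr4:53159896-53160145 and Cd5l on the plus strand at chr3:87357631-87357880, each written 5' to 3' along the gene. Capitals in Abca1 mark the DR4 match, which lies 67 to 53 bases before the start and reads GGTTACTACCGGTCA on the opposite strand.
Abca1: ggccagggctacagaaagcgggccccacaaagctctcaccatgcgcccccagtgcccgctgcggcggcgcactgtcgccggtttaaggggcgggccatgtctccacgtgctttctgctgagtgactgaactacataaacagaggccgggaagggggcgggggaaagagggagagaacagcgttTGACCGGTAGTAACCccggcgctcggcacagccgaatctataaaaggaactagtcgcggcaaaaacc
Cd5l: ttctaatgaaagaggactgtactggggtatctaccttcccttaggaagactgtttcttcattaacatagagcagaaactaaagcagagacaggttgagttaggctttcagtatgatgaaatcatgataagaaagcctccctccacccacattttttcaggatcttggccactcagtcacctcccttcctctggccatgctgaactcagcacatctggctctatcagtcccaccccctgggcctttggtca
RefSeq promoters were found for 7 of the 10 genes; Abcg1, Smpdl3a and Npc1 had none in the table used. A relaxed DR4, the half-site GGTNA repeated with 5 bases between, was searched on both strands; it stood in 204 of 32851 promoters (0.621%) and, among the 7, in Abca1 alone. The stricter form, AGGTCA repeated with 4 bases between, stood in 0.0152% of promoters and in none of the 7. The E-box CACGTG, which reads the same on both strands and does not overlap the repeat, stood in 6.02% of promoters and, among the 7, in Abca1, 147 to 142 bases before the start. A missing match says only that these letters are not in this window.

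The libraries hold 3' mRNA tags, so levels are given as counts scaled to library size (CPM) and are compared between groups, not between genes. Total counts ran from 4018845 to 5966784 in KO rimeporide, from 4204660 to 5609775 in WT rimeporide, from 4422263 to 7929499 in KO DMSO and from 3666413 to 5818442 in WT DMSO libraries. Grn averaged 17.6 ± 4.96 CPM in KO and 1629 ± 37.0 CPM in WT with rimeporide, and 12.6 ± 1.90 CPM in KO and 1729 ± 94.1 CPM in WT with DMSO (SD, n = 4 each), so the genotypes follow their labels. All 9 microglial markers were detected, and their summed level was 1278 to 1505 CPM in KO and 1568 to 1649 CPM in WT with rimeporide, and 1421 to 1653 CPM in KO and 1494 to 1821 CPM in WT with DMSO. Markers of other brain cells were present and moved with genotype. The 9 astrocyte markers summed to 69.8 to 91.4 CPM in KO and 17.5 to 30.6 CPM in WT with rimeporide, and to 78.0 to 103 CPM in KO and 15.8 to 28.7 CPM in WT with DMSO. The 8 neuronal markers summed to 48.2 to 71.4 CPM in KO and 7.91 to 14.3 CPM in WT with rimeporide, and to 44.6 to 82.8 CPM in KO and 7.14 to 14.6 CPM in WT with DMSO. Of the astrocyte markers 6 of 9 rose in KO with rimeporide and 6 of 9 with DMSO; of the 5 neuronal markers tested 3 rose with rimeporide and 5 with DMSO. Of 7 oligodendrocyte lineage markers tested, 5 rose and 0 fell in KO with rimeporide, and 4 rose and 1 fell with DMSO. All 3 border macrophage markers tested fell with rimeporide and 2 of 3 with DMSO, and of the microglial markers 3 of 9 fell with rimeporide and 2 of 9 with DMSO. Of 5 fibroblast and vessel markers tested, 1 rose and 1 fell with rimeporide, and 2 rose and 0 fell with DMSO. Over all genes tested, 5.14% rose and 2.32% fell in KO with rimeporide, and 10.1% rose and 8.56% fell with DMSO. With all 8 neuronal markers at 7.14 to 14.6 CPM together in WT with DMSO, some may have passed the filter on low counts only through KO libraries. The same may hold for some of the 9 astrocyte markers, at 15.8 to 28.7 CPM together in WT with DMSO, and for some oligodendrocyte lineage markers. The counts of these markers that rose are therefore not independent support. The 9 oligodendrocyte lineage markers summed to 65.8 to 95.7 CPM in KO and 38.9 to 60.0 CPM in WT with rimeporide, and to 76.1 to 87.1 CPM in KO and 47.8 to 93.5 CPM in WT with DMSO, with Mog at 0 in all KO DMSO libraries. Markers of border macrophages, 6 in all, summed to 1099 to 1281 CPM in KO and 1452 to 1702 CPM in WT with rimeporide, and to 1169 to 1471 CPM in KO and 1436 to 1645 CPM in WT with DMSO. The 8 markers of fibroblasts and vessels summed to 39.4 to 63.3 CPM in KO and 33.6 to 56.4 CPM in WT with rimeporide, and to 50.3 to 68.4 CPM in KO and 33.4 to 43.4 CPM in WT with DMSO. The part of these cells in the genotype differences below was not tested. In bulk RNA, fewer cells of a type and less RNA per cell cannot be told apart. A second measure moved with the groups: a score over 933 processed pseudogenes (mean centred log2 CPM) was −0.77, 0.12, −0.54 and −1.01 in KO DMSO replicates 1 to 4, against −0.14 to 0.30 in WT DMSO, with 0.13 to 0.59 in KO rimeporide and −0.12 to 0.52 in WT rimeporide. KO DMSO replicate 2 thus stood apart from the other 3 of its group. As the score differed between groups, a fit with it as a covariate cannot fully tell the score apart from genotype or drug. Calls over all genes fell with it in KO against WT with DMSO and in rimeporide against DMSO in KO, as given at the end. A call lost in such a fit cannot be read as particular to its gene.

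**Figure D1:**
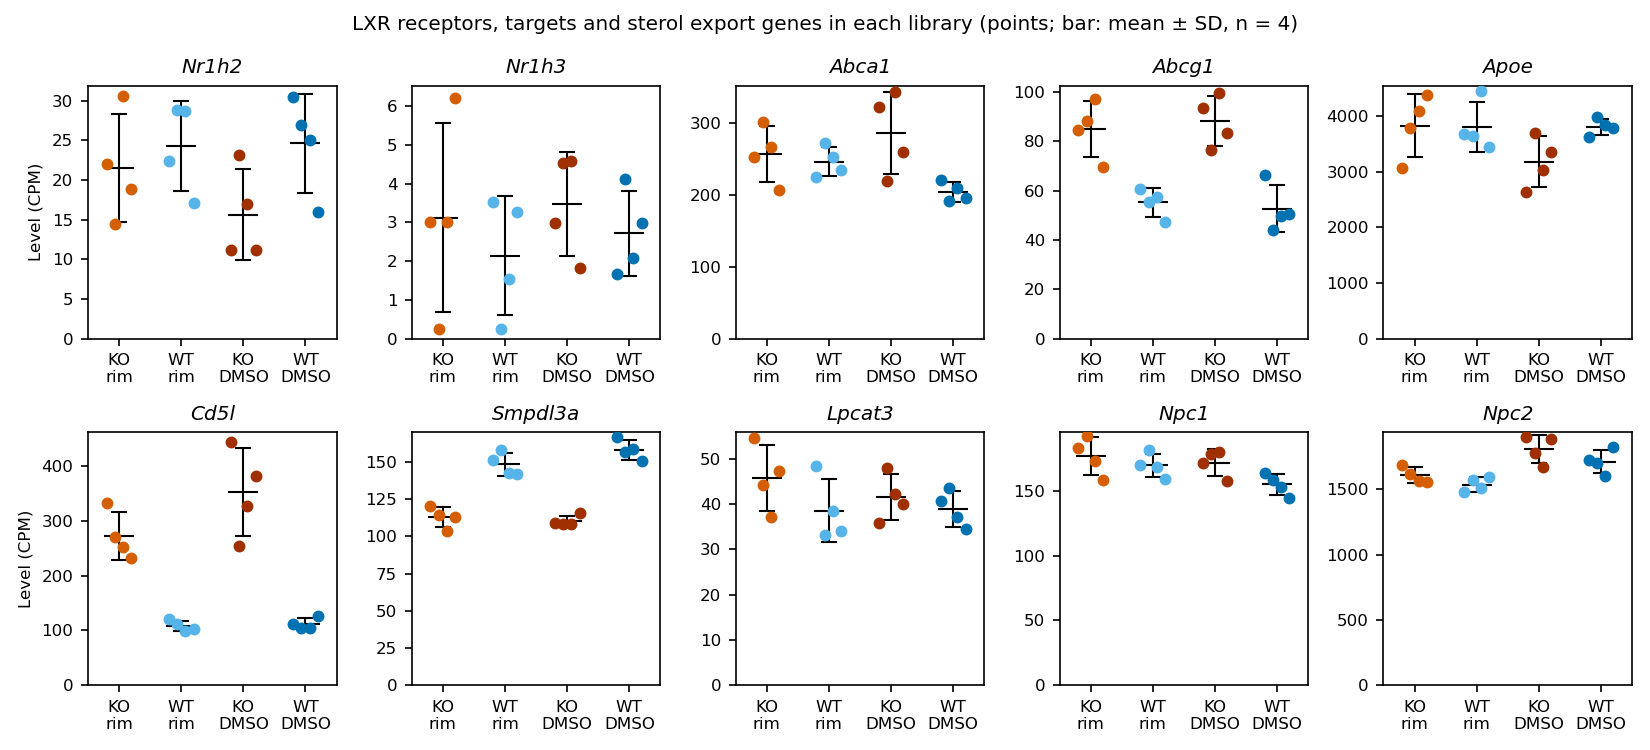
Level in CPM of the 10 genes in each library (points) for KO and WT with rimeporide (rim) and KO and WT with DMSO; long bars are means and whiskers the SD of 4 libraries. In both treatments, all KO libraries lie above all WT libraries for Abcg1 and Cd5l and below them for Smpdl3a.

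Comparing KO with WT asks what the loss of Grn does to this route. With DMSO, Cd5l, Abcg1 and Abca1 rose and Smpdl3a fell in KO cells, while Apoe, Lpcat3, both receptors and both lysosomal cholesterol genes did not pass the test. Of the 10 genes, 4 were called, where 18.6% of all genes tested were; 3 rose, as did 10.1% of all genes, and 1 fell, as did 8.56%. With rimeporide, Cd5l and Abcg1 rose and Smpdl3a fell in KO cells, so that 3 of 10 were called, where 7.46% of all genes were; 2 rose, as did 5.14% of all genes, and 1 fell, as did 2.32%. The median log2 fold change of the 10 genes was 0.12 with DMSO and 0.06 with rimeporide, beside 0.01 for all genes in each treatment. The KO and WT libraries did not overlap for 3 of the 10 genes in either treatment, where that held for 16.6% of all genes with DMSO and 12.6% with rimeporide. Fold changes below are log2 values ± SE from edgeR's quasi-likelihood test, with p adjusted over all genes by Benjamini-Hochberg, and the comparisons share libraries with one another.

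The receptors come first. Nr1h2, which encodes LXRβ, the form found in most tissues, had 22.1, 14.5, 30.6 and 18.9 CPM in KO and 22.4, 28.9, 28.8 and 17.1 CPM in WT with rimeporide. In DMSO, Nr1h2 had 11.2, 23.2, 17.0 and 11.2 CPM in KO and 30.5, 27.0, 25.1 and 15.9 CPM in WT. The ranges overlapped in both treatments, with KO DMSO replicate 2 the highest of its group. The KO against WT difference was −0.68 ± 0.25 with DMSO (edgeR adjusted p = 0.0591) and −0.15 ± 0.25 with rimeporide (edgeR adjusted p = 0.830). The DMSO difference of Nr1h2 passed under 6 of the 22 alternatives, with DESeq2 (adjusted p = 0.0492) and without the filter on low counts (edgeR adjusted p = 0.00423) among them. Without KO DMSO replicate 2, Nr1h2 passed with −0.91 (edgeR adjusted p = 0.00649), without WT DMSO replicate 4 with −0.84 (edgeR adjusted p = 0.0196) and without KO rimeporide replicate 3 with −0.69 (edgeR adjusted p = 0.0442). With the pseudogene score as a covariate the difference was 0.03 (edgeR adjusted p = 0.971), and within groups Nr1h2 followed that score over the 16 libraries (Pearson r = 0.78, permutation p = 0.00133 and adjusted p = 0.0133 over 10 relations; Spearman rho = 0.73, adjusted p = 0.0593; r = 0.71 without the 2 libraries with the most extreme scores).

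Nr1h3, which encodes LXRα, the inducible form of macrophages and liver, was close to the counting limit. It had 3.01, 0.245, 3.01 and 6.23 CPM in KO and 3.53, 0.243, 1.54 and 3.27 CPM in WT with rimeporide. The DMSO libraries had 2.99, 4.55, 4.59 and 1.81 CPM in KO and 1.68, 4.14, 2.08 and 2.98 CPM in WT. These values come from 1 to 31 counts a library, and the groups overlapped. The KO against WT difference was 0.37 with DMSO (95% interval −0.73 to 1.47) and 0.48 with rimeporide (−0.70 to 1.66), and both intervals include 0.

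Abca1 had 322, 219, 343 and 259 CPM in KO DMSO libraries and 220.3, 191, 209.7 and 195 CPM in WT DMSO libraries. Of the 4 KO values 3 lay above every WT value, and replicate 2 lay just under the highest. Abca1 rose by 0.49 ± 0.12 in KO (1.40-fold; edgeR adjusted p = 0.00594). With rimeporide it had 253, 301, 267 and 206 CPM in KO and 225, 271, 252 and 235 CPM in WT, with the groups overlapping and a difference of 0.06 ± 0.12 (95% interval −0.18 to 0.31; edgeR adjusted p = 0.858). Leaving out single libraries kept the DMSO value between 0.39 and 0.58 and its adjusted p at most 0.0342. The pseudogene score as a covariate left 0.44 with DMSO (edgeR adjusted p = 0.114) and so ended the call. The change of the KO effect with rimeporide, tested as an interaction, was −0.43 ± 0.17 (unadjusted p = 0.0195; edgeR adjusted p = 0.184) and did not pass.

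Abcg1, the pump that hands cholesterol to mature high-density lipoprotein, had 84.6, 88.4, 97.1 and 69.8 CPM in KO and 60.8, 55.4, 57.3 and 47.3 CPM in WT with rimeporide. Among DMSO libraries Abcg1 had 93.4, 76.4, 99.6 and 83.4 CPM in KO and 66.2, 44.1, 49.9 and 50.4 CPM in WT. Every KO library exceeded every WT library of the same treatment. Abcg1 rose by 0.62 ± 0.13 in KO with rimeporide (1.54-fold; edgeR adjusted p = 0.00201) and by 0.75 ± 0.13 with DMSO (1.68-fold; edgeR adjusted p = 0.000184). It passed under all 22 alternative settings, and stayed between 0.54 and 0.69 with rimeporide and between 0.66 and 0.87 with DMSO.

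Apoe, the apolipoprotein that carries exported cholesterol in the brain, had 3074, 3791, 4097 and 4383 CPM in KO and 3688, 3647, 4458 and 3449 CPM in WT with rimeporide. In DMSO the values were 2631, 3699.9, 3030.2 and 3368 CPM in KO and 3626, 3982, 3855 and 3798 CPM in WT. With DMSO, 3 of the 4 KO libraries lay below all WT libraries and replicate 2 lay inside their range. The KO against WT difference was −0.26 ± 0.10 with DMSO (edgeR adjusted p = 0.0819) and 0.01 ± 0.10 with rimeporide (95% interval −0.20 to 0.22; edgeR adjusted p = 0.979). Apoe passed with DMSO when KO DMSO replicate 2 was left out (−0.36; edgeR adjusted p = 0.0115) or KO rimeporide replicate 1 was (edgeR adjusted p = 0.0483), and without the filter on low counts (edgeR adjusted p = 0.0386). With the pseudogene score as a covariate the Apoe difference with DMSO was −0.08 (edgeR adjusted p = 0.811). Abca1, Abcg1 and Apoe, which all serve sterol export, thus had KO against WT differences of 0.49, 0.75 and −0.26 with DMSO. The Apoe difference did not pass.

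Cd5l had 333, 272, 252 and 232 CPM in KO rimeporide libraries and 120.0, 112, 99.3 and 102 CPM in WT rimeporide libraries. Cd5l with DMSO had 444, 255, 328 and 382 CPM in KO and 111, 104, 104 and 127 CPM in WT. The lowest KO library had 232 CPM and the highest WT library 127 CPM. Cd5l rose by 1.33 ± 0.14 in KO with rimeporide (2.51-fold; edgeR adjusted p = 4.02e-07) and by 1.66 ± 0.13 with DMSO (3.16-fold; edgeR adjusted p = 8.34e-09). By group mean the order was KO DMSO (352 ± 80.6 CPM), KO rimeporide (272 ± 43.8 CPM), WT DMSO (112 ± 10.6 CPM) and WT rimeporide (108 ± 9.64 CPM), with the KO groups overlapping each other and the WT groups overlapping each other. It passed in both treatments under all 22 alternative settings. The pseudogene score as a covariate gave 1.29 with DMSO (edgeR adjusted p = 2.89e-07).

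Smpdl3a, a secreted phosphodiesterase related to acid sphingomyelinase, had 120.5, 115, 104 and 113 CPM in KO and 152, 158, 142 and 142 CPM in WT with rimeporide. The corresponding DMSO values were 109, 108, 108 and 116 CPM in KO and 167, 157, 159 and 151 CPM in WT. Every KO library was below every WT library. Smpdl3a fell by 0.39 in KO with rimeporide (SE 0.076; 1.31-fold lower; edgeR adjusted p = 0.00122) and by 0.52 with DMSO (SE 0.075; 1.43-fold lower; edgeR adjusted p = 3.04e-05), in the opposite direction to Cd5l and Abcg1. It passed in both treatments under all 22 alternative settings.

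Lpcat3, which puts polyunsaturated acyl chains into membrane phospholipids, ran from 37.1 to 54.7 CPM in KO and from 33.3 to 48.5 CPM in WT with rimeporide. With DMSO it ran from 35.9 to 48.0 CPM in KO and from 34.5 to 43.6 CPM in WT. The groups overlapped, and the KO against WT difference was 0.24 with rimeporide (95% interval −0.05 to 0.53) and 0.09 with DMSO (−0.19 to 0.37).

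Npc1, the membrane protein of cholesterol exit from lysosomes, had 183, 193, 173 and 159 CPM in KO and 170.1, 182, 168 and 159.6 CPM in WT with rimeporide. With DMSO, Npc1 had 172, 178, 181 and 158 CPM in KO and 164, 159, 153 and 145 CPM in WT. The KO means were higher in each treatment but the ranges overlapped: 0.06 ± 0.080 with rimeporide (edgeR adjusted p = 0.776) and 0.15 ± 0.080 with DMSO (edgeR adjusted p = 0.202). Npc2, its soluble partner, had 1689.5, 1616, 1565 and 1554 CPM in KO and 1476, 1570.0, 1506 and 1593 CPM in WT with rimeporide. With DMSO, Npc2 had 1897, 1781, 1671 and 1883 CPM in KO and 1726, 1702, 1600.1 and 1821 CPM in WT. The difference was 0.06 with rimeporide (95% interval −0.07 to 0.20) and 0.08 with DMSO (−0.06 to 0.21), and both upper bounds lie under the 0.62 of Abcg1.

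**Figure D2:**
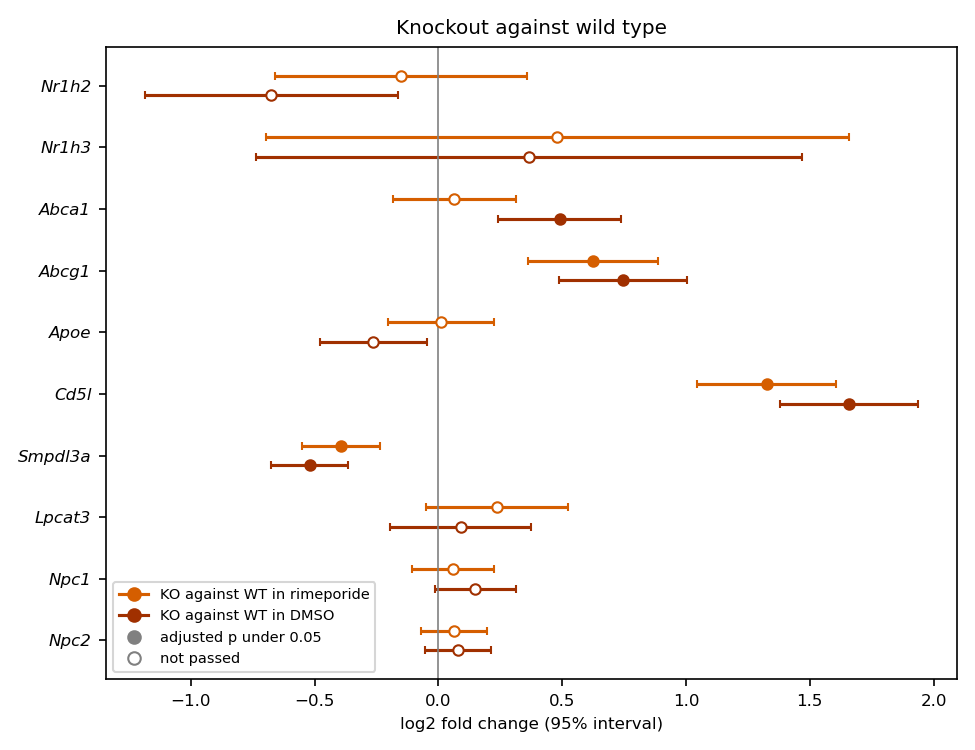
Log2 fold change of KO against WT with its 95% interval for each gene, with rimeporide (light) above DMSO (dark); filled points have an adjusted p under 0.05. Cd5l and Abcg1 lie right of 0 and Smpdl3a left of it in both treatments, and Abca1 is filled with DMSO only.

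Rimeporide against DMSO within a genotype asks what the drug does to the same genes. In WT, 0 of the 10 genes passed edgeR's test, where 0% of all genes were called: 676 of 12272 had an unadjusted p under 0.05, and DESeq2 called 6, none of them among the 10. Of the 10 genes, 2 had an unadjusted p under 0.05 and non-overlapping groups, where the groups did not overlap for 3.33% of all genes. Abca1 was higher in every WT rimeporide library than in every WT DMSO library, by 0.27 ± 0.12 (unadjusted p = 0.0367; edgeR adjusted p = 0.876). Npc2 was lower in every WT rimeporide library, by −0.16 ± 0.065 (unadjusted p = 0.0240; edgeR adjusted p = 0.819). In KO cells 0 of the 10 genes passed edgeR's test, where 14.8% of all genes were called. An unadjusted p under 0.05 was found for 3 of the 10 and for 3553 of all 12272 genes, so 3 of 10 is near the background. DESeq2 called 2 of the 10 and limma 2. The shares of all genes called by those fits are not given here, so these counts are not read as a result about the members. Cd5l differed by −0.38 ± 0.13 (edgeR adjusted p = 0.0517), Npc2 by −0.17 ± 0.065 (edgeR adjusted p = 0.0771) and Apoe by 0.27 ± 0.10 (edgeR adjusted p = 0.0817). With the pseudogene score as a covariate the Cd5l difference turned to 0.10, that of Npc2 was −0.08 and that of Apoe 0.03 (edgeR adjusted p = 1.00 each). Cd5l passed under 6 of the 22 alternatives, among them DESeq2 (adjusted p = 0.0462), limma (adjusted p = 0.0334) and no filter on low counts (edgeR adjusted p = 0.000931). The limma fit had a median log2 fold change of −0.11 over all genes in this comparison, beside −0.01 in the main fit. None of the 10 had KO rimeporide and KO DMSO libraries that did not overlap, where that held for 13% of all genes. Without KO DMSO replicate 2, 4 of the 10 passed (Apoe, Nr1h2, Cd5l and Npc2), Cd5l with −0.51 (edgeR adjusted p = 0.00181), and without KO rimeporide replicate 1, 2 passed. Over all genes, the fits that left out a library gave 643 to 3002 calls in this comparison, beside 1813 with all libraries. The background of these member counts thus moved as well. The share of all genes called in each of these fits is not given here, so the 4 and the 2 are not read as a result about the members.

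The average of the drug effect over the genotypes gave 1 call of 10, a decrease, where 3.66% of all genes were called and 1.63% fell. Npc2 fell by 0.16 on the log2 scale (SE 0.046; edgeR adjusted p = 0.0473). That call ended in 11 of the 16 fits that left out a library (KO rimeporide 2, 3 or 4, WT rimeporide 1, 2 or 3, KO DMSO 1 or 4, WT DMSO 1, 2 or 4), without the filter on low counts (edgeR adjusted p = 0.0639) and with the pseudogene score as a covariate (edgeR adjusted p = 0.680). The interaction of genotype and drug tests whether the KO effect differs between treatments. It gave 0 calls among the 10 genes by edgeR, where 0.0163% of all genes were called. An unadjusted p under 0.05 was found for 1 of the 10, Abca1, and for 2277 of all 12272 genes, so 1 of 10 is not above the background. DESeq2, which called 276 genes of all tested, called 0 of the 10 as well. For Cd5l the interaction was −0.33 ± 0.19 (edgeR adjusted p = 0.349) and for Abcg1 −0.12 ± 0.18 (edgeR adjusted p = 0.773). Without KO DMSO replicate 2, Abca1 passed the interaction test with −0.53 (edgeR adjusted p = 0.0212). That fit called 1497 of all genes, the most of any fit that left out a library, so the call is not read as particular to Abca1.

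**Figure D3:**
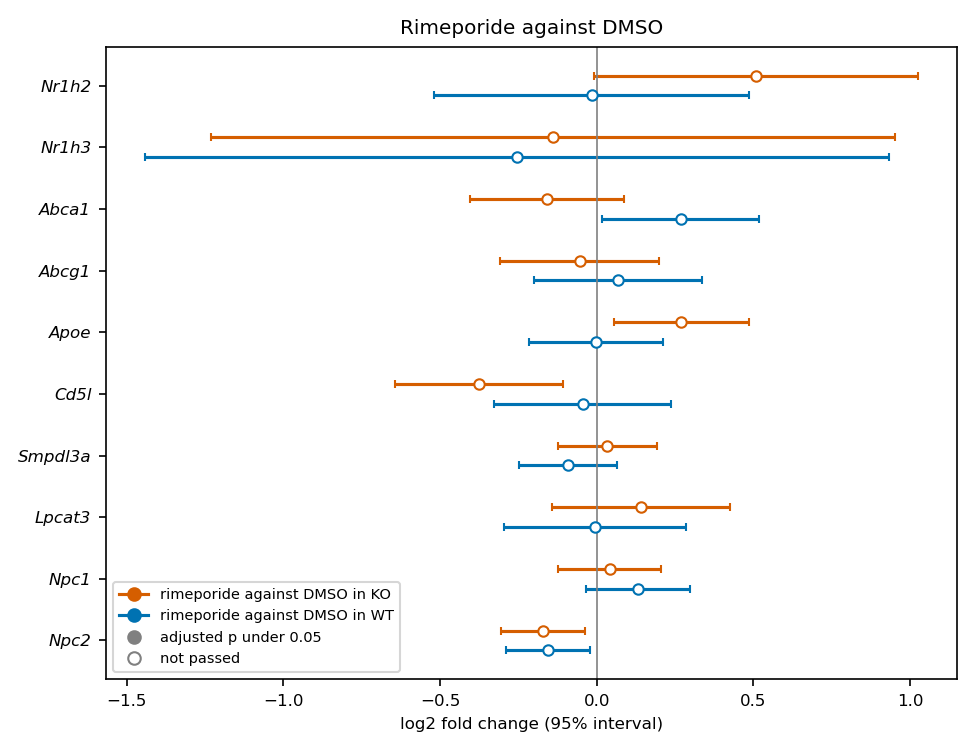
Log2 fold change of rimeporide against DMSO with its 95% interval, in KO (orange) above WT (blue) for each gene; no point is filled, because none passed. Cd5l in KO (−0.38), Apoe in KO (0.27) and Abca1 in WT (0.27) lie farthest from 0 among the genes whose interval leaves 0 out.

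The spread of the 10 genes within groups was also set against the pseudogene score. KO DMSO replicate 2, with a score of 0.12, was the lowest of its group for Abca1, Abcg1 and Cd5l and the highest for Apoe and Nr1h2. Over the 16 libraries Cd5l was lower where the score was higher (Pearson r = −0.69, permutation adjusted p = 0.139 over 10 relations; Spearman rho = −0.66, adjusted p = 0.0761; r = −0.49 without the 2 most extreme scores), which did not pass the adjustment. Abca1 (r = −0.14) and Abcg1 (r = 0.03) gave small values. Among the 45 pairs of the 10 genes, the most extreme were Apoe with Cd5l (Pearson r = −0.77, adjusted p = 0.171; Spearman rho = −0.74, adjusted p = 0.292; r = −0.58 without the 2 libraries farthest from the median) and Abca1 with Abcg1 (Pearson r = 0.68, adjusted p = 0.171; Spearman rho = 0.68, adjusted p = 0.293; r = 0.53 without them), and no pair passed by permutation test.

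**Figure D4:**
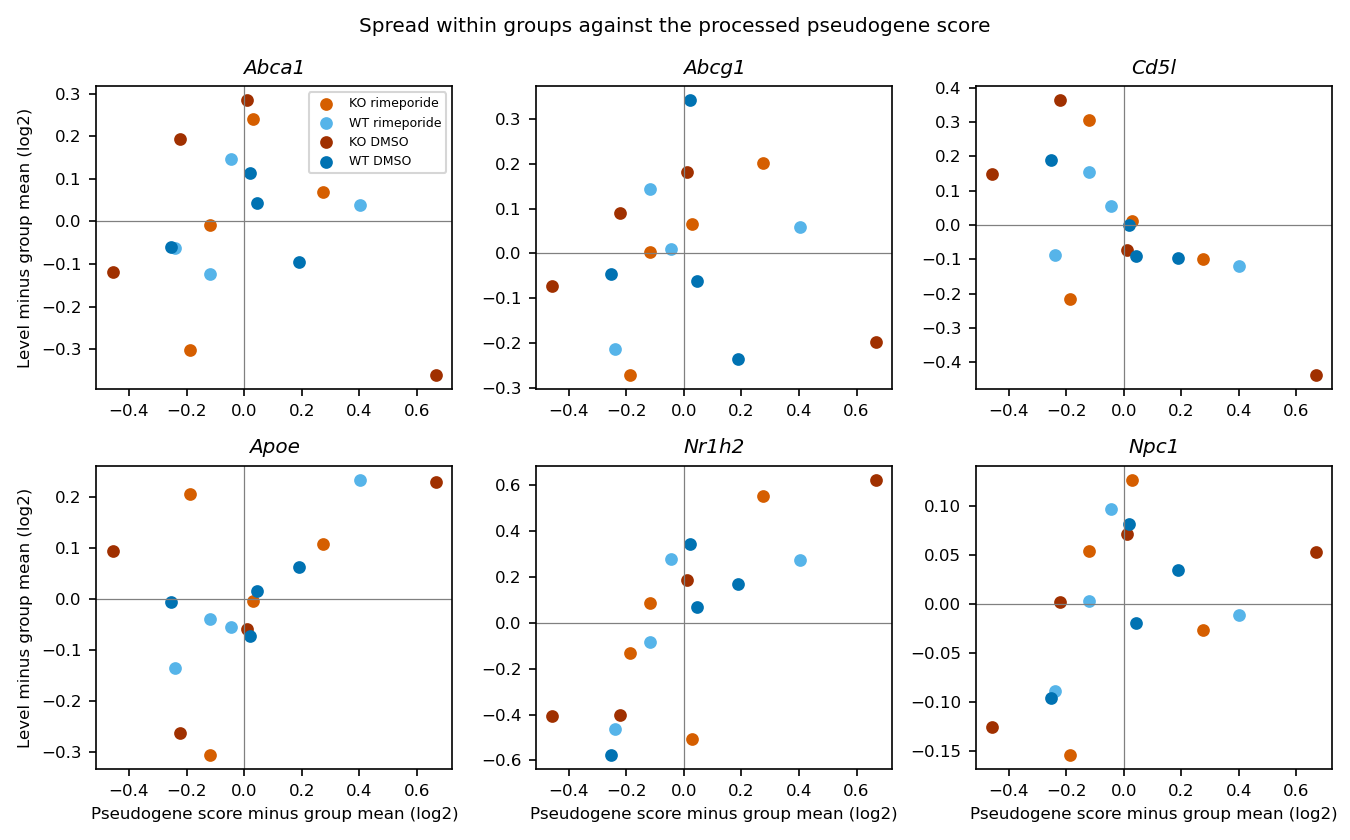
For 6 of the genes, each library's log2 CPM minus its group mean (y) against the processed pseudogene score minus its group mean (x), colored by group. Nr1h2 climbs with the score (r = 0.78), and KO DMSO replicate 2 is the point farthest right in each panel.

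Genes whose pattern over the 16 libraries was closest to that of a member were taken by Pearson r of log2 CPM among 10528 candidates, as a description only. For Cd5l these were Hpse (r = 0.97), Tmem158 (r = 0.97) and Cnrip1 (r = 0.97). Within the 8 WT libraries the values were 0.65, −0.21 and 0.59, and within KO 0.96, 0.87 and 0.90. For Abca1 they were Prdx3 (r = 0.93), Tmem184c (r = 0.91) and Sox4 (r = 0.90), with values of 0.93, 0.93 and 0.82 within KO and 0.87, 0.81 and 0.91 within WT. For Apoe they were Ptprc (r = 0.86), Odr4 (r = 0.85) and H2ac19 (r = 0.85), with 0.93, 0.90 and 0.89 within KO and 0.34, 0.44 and 0.73 within WT.

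The rest of the pathway was read from 4 lists. Of 12 tested genes among 14 further LXR targets, 4 rose and 0 fell in KO with rimeporide and 6 rose and 0 fell with DMSO; the median of the 12 was 0.26 with rimeporide and 0.48 with DMSO. Over all genes tested 5.14% rose with rimeporide and 10.1% with DMSO, and the median was 0.01 in each. Scd2, a stearoyl-CoA desaturase, had 70.3 to 87.9 CPM in KO and 12.1 to 16.3 CPM in WT with rimeporide, and 59.2 to 86.6 CPM in KO and 11.4 to 12.8 CPM in WT with DMSO. It rose by 2.39 ± 0.14 with rimeporide (edgeR adjusted p = 4.20e-11) and by 2.59 ± 0.14 with DMSO (edgeR adjusted p = 1.04e-11). Scd1, its paralog, rose by 2.80 ± 0.42 in each treatment and was low throughout, at 3.51 to 5.16 CPM in KO and 0 to 0.878 CPM in WT with rimeporide. At such WT levels a gene passes the filter on low counts only through KO libraries. The rise of Scd1, counted above in both treatments, is therefore not independent support. The KO against WT groups did not overlap for either desaturase in either treatment, and both passed under all 22 alternatives. Astrocytes, some of whose markers rose in KO with the filter limit given above, also express Scd2, and the part of these cells was not tested.

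Elovl5, an elongase of polyunsaturated fatty acids, rose by 0.73 ± 0.10 with DMSO (edgeR adjusted p = 2.22e-05), and with rimeporide was 0.32 ± 0.11 (edgeR adjusted p = 0.0678). Arl4c, a small GTPase, rose by 0.55 ± 0.12 with DMSO (edgeR adjusted p = 0.00165), was −0.05 ± 0.12 with rimeporide (edgeR adjusted p = 0.888), and lost its call with the pseudogene score as a covariate (edgeR adjusted p = 0.230). Pltp, which transfers phospholipids between lipoproteins, rose by 0.64 ± 0.15 with rimeporide (edgeR adjusted p = 0.00643), a call that ended without KO rimeporide replicate 3 (edgeR adjusted p = 0.0527), and was −0.04 with DMSO. Fasn, the fatty acid synthase, rose by 0.82 ± 0.22 with rimeporide (edgeR adjusted p = 0.0205) and by 0.67 ± 0.21 with DMSO (edgeR adjusted p = 0.0303), and each call ended in 6 of the fits that left out a library (with rimeporide KO 1, 2 or 4 and WT 1, 2 or 3; with DMSO KO 1, 3 or 4 and WT 2, 3 or 4). With the pseudogene score as a covariate Fasn was 0.26 with DMSO (edgeR adjusted p = 0.705). Mertk, chosen after its values were seen, was the remaining gene of the list to rise with DMSO (0.40 ± 0.11; edgeR adjusted p = 0.0116). In KO with rimeporide against DMSO, Arl4c fell by 0.61, Elovl5 by 0.38 and Lpl, named for its call, by 0.23 on the log2 scale. The calls of Arl4c and Elovl5 ended with the pseudogene score as a covariate, as did nearly all calls over all genes in that comparison. That of Elovl5 also ended without KO DMSO replicate 1 or 4 or KO rimeporide replicate 3.

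Of 17 tested genes among 18 of sterol storage and transport, 3 rose and 1 fell in KO with rimeporide and 5 rose and 2 fell with DMSO; the median of the 17 was 0.01 with rimeporide and 0.06 with DMSO. Over all genes tested 7.46% were called with rimeporide and 18.6% with DMSO, and the median was 0.01 in each. Stard4, a soluble sterol carrier, rose by 1.01 ± 0.21 with rimeporide (edgeR adjusted p = 0.00200) and by 0.99 ± 0.20 with DMSO (edgeR adjusted p = 0.000999), the DMSO call ending with the pseudogene score as a covariate (0.61; edgeR adjusted p = 0.146). Lipa, the lysosomal acid lipase that frees cholesterol from its esters, fell by 0.24 with rimeporide (edgeR adjusted p = 0.0351) and by 0.32 with DMSO (edgeR adjusted p = 0.00250). Soat1, which makes cholesteryl esters, rose by 0.21 with rimeporide (edgeR adjusted p = 0.0375) and by 0.22 with DMSO (edgeR adjusted p = 0.0180), and Osbpl11, an oxysterol-binding-protein relative, by 0.30 with rimeporide and 0.25 with DMSO. With rimeporide the calls ended for Lipa without KO replicate 1, 2 or 3 or WT replicate 1 or 3, for Soat1 in 10 of the 16 fits that left out a library, and for Osbpl11 in 6 of them. With DMSO the Osbpl11 call ended in 12 of those 16 fits and without the filter (edgeR adjusted p = 0.164), and the Soat1 call without KO DMSO replicate 4, without WT DMSO replicate 2 and without the filter (edgeR adjusted p = 0.0670). Osbpl9 and Gramd1b, named for their calls, fell by 0.32 and rose by 0.32 with DMSO. Tmem97 rose with DMSO by 0.55 ± 0.14 (edgeR adjusted p = 0.00781). Of the 7 calls with DMSO none passed with the pseudogene score as a covariate, where Lipa was −0.26, Soat1 0.20, Osbpl11 0.22 and Tmem97 0.18. Leaving out single libraries gave 3 to 8 calls with DMSO: 3 without KO DMSO replicate 4 and 4 without KO DMSO replicate 1 or WT DMSO replicate 1, 2 or 3. Of the 4 calls with rimeporide, leaving out single libraries left 1 to 5: 1 without KO rimeporide replicate 1, 2 or 3, and 2 without WT rimeporide replicate 1, 2 or 3.

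Of 7 tested partners and coregulators of LXR, 0 rose and 0 fell in KO by edgeR with rimeporide (0 had an unadjusted p under 0.05, and DESeq2 and limma called 0), and 0 rose and 1 fell with DMSO, where 8.56% of all genes fell, so that 1 of 7 is near the background. Ncor1, a corepressor of LXR, had 188.2 to 226.6 CPM in KO and 234.3 to 275.7 CPM in WT with DMSO and fell by 0.31 (SE 0.076; edgeR adjusted p = 0.00637), a call that ended with the pseudogene score as a covariate (−0.23; edgeR adjusted p = 0.143) and without the filter (edgeR adjusted p = 0.0723). With rimeporide it had 253.6 to 282.3 CPM in KO and 266.5 to 278.3 CPM in WT. In KO, Ncor1 rose by 0.35 ± 0.076 with rimeporide against DMSO (edgeR adjusted p = 0.00535). That call also ended with the covariate (0.26, edgeR adjusted p = 0.971), as did nearly all calls over all genes in that comparison. Rxra, Rxrb and Ncoa6 did not pass in either KO against WT comparison. Of 2 tested genes among 6 enzymes that make or use oxysterols, Cyp27a1 and Hsd3b7, neither passed in KO against WT in either treatment by edgeR, neither had an unadjusted p under 0.05, and DESeq2 and limma called 0. With DMSO, all KO libraries lay below all WT libraries for 1 of the 2, where groups did not overlap for 16.6% of all genes. Without KO DMSO replicate 2, Hsd3b7 passed in KO against WT with DMSO (−0.33, edgeR adjusted p = 0.0390). Hsd3b7, a bile-acid pathway enzyme, rose by 0.40 ± 0.12 in KO with rimeporide against DMSO (edgeR adjusted p = 0.0241). That call ended without KO rimeporide replicate 1, 2 or 4 or KO DMSO replicate 1, 3 or 4, with limma (adjusted p = 0.0647), without the filter (edgeR adjusted p = 0.0858) and with the pseudogene score as a covariate (0.13).

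**Figure D5:**
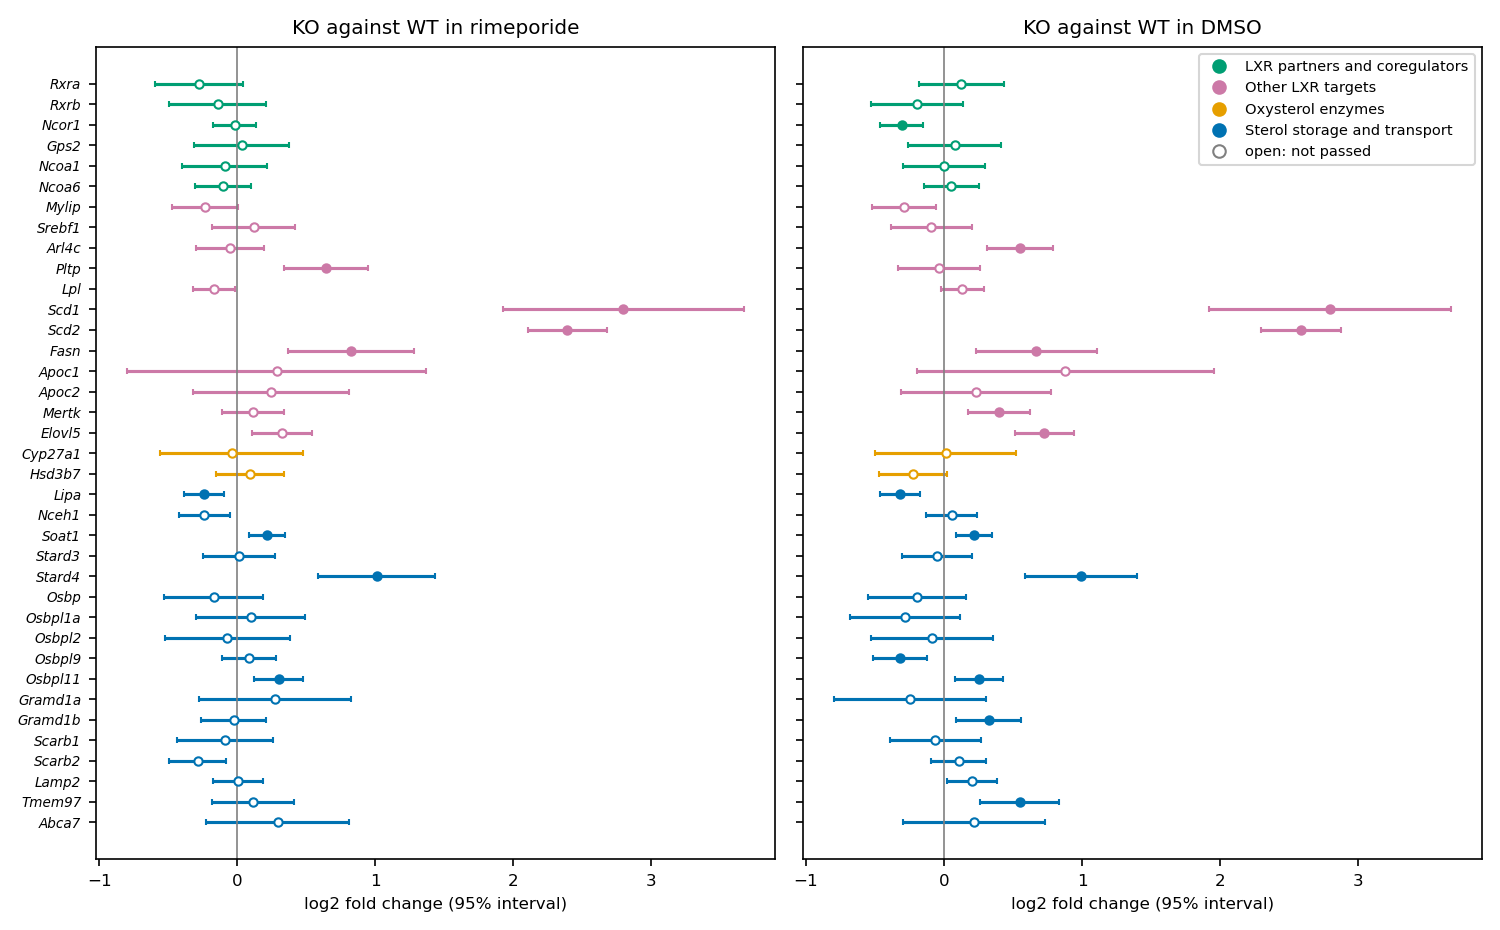
Log2 fold change of KO against WT with its 95% interval for the genes shown of the 4 lists, with rimeporide (left) and DMSO (right); colors mark the list and open points did not pass. Scd1 and Scd2 lie farthest right in both panels, between 2.39 and 2.80, ahead of Stard4 at 1.01 with rimeporide and 0.99 with DMSO.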

How the data were processed

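The authors deposited expected counts per gene, made with Salmon on GRCm39 per the submitters' processing notes, and log2 CPM values of the genes they kept. The Salmon version, the annotation, and whether duplicates marked by molecular identifiers were removed before counting were not given in the sources used. Of the deposited expected counts 13.7% were not whole, and rounding them changed 0.0207% of the total. Genes were kept with edgeR 4.0.16 filterByExpr (minimum count 10, minimum total 15), scaled by TMM and tested in R 4.3.3 by the quasi-likelihood test with 1 mean per group over 16 libraries, which had 12 residual and 10.8 prior degrees of freedom. A gene was called with a Benjamini-Hochberg adjusted p under 0.05 over all genes of the comparison. SE was the log2 fold change over the root of F. P-values measure the spread between libraries. The alternatives used DESeq2 1.42.0, limma 3.58.1 on the deposited log2 CPM, RLE scaling, no filter, a replicate block, the pseudogene score as a covariate, and each library left out. Biotypes behind that score came from GENCODE M21, and 115 tested genes had none. Correlations used log2 CPM (prior count 2) minus group means, with 100000 permutations within groups, two-sided. The scripts were tested on simulated data. The 10 members and all lists were chosen with earlier results of these data known. Named by rule were Grn, the 10 members, up to 4 genes a list with the smallest p in each KO against WT comparison, and the 3 genes closest to Abca1, Apoe and Cd5l; 1 gene that the rule selects is not reported here. Whether the numbers pair libraries was checked by the correlation of deviations from group means, given below.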

Additional observations from a re-analysis of the deposited data

Results flagged for a closer look

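Smpdl3a in KO DMSO replicate 4 was 115.7 CPM, farther from the other 3 libraries of its group, at 108 to 109 CPM, than their spread allows: its gap to the next value was 0.859 of the group's range, past the 95% limit of Dixon's test for 4 libraries. This was 1 of 40 groups checked, and chance alone marks about 1 in 20.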

How the results depend on the processing

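Over 22 alternative settings, 16 of which left out a library, the 10 genes gave 1320 values. Of these, 1256 were counted as the same. They were calls that kept their sign, or uncalled values that stayed uncalled and shifted by less than their SE. Such uncalled values could change sign, as Apoe did for rimeporide against DMSO in WT (−0.09 to 0.04). A further 14 lost a call, 27 gained one, 23 moved by at least their SE without a call, and 0 called values changed sign. Among the 10 genes, 4 calls in KO against WT with DMSO and 3 with rimeporide stayed within 1.5 times those counts under every setting. Members called with rimeporide in KO, 0 as reported, were 2 by DESeq2, 2 by limma and 1 without the filter, and 0 to 4 with libraries left out; averaged over genotypes 1 became 0 without the filter, 0 with the pseudogene score and 0 to 2 with libraries left out; the interaction's 0 became 1 without the filter and 0 to 1 with libraries left out. Over all genes, calls in KO against WT with DMSO, 2287 as reported, were 808 with the pseudogene score and 1430 to 3345 with libraries left out. Rimeporide against DMSO in KO gave 1813, then 1 with the score and 643 to 3002 with libraries left out, and in WT gave 0, then 6 by DESeq2, 95 without the filter, 2 with the score and 0 to 40 with libraries left out. Averaged it gave 449, then 801 by DESeq2, 970 without the filter, 17 with the score and 11 to 1746 with libraries left out. The interaction gave 2, then 276 by DESeq2, 0 by limma, 630 without the filter, 0 with the score and 0 to 1497 with libraries left out, the highest without KO DMSO replicate 2. The cause of these moves was not tested.

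The replicate numbers were not taken as pairing, since not every same-numbered pair's deviations correlated above 0.1. The correlations ran from 0.0313 to 0.185 between KO rimeporide and KO DMSO (3 of 4 above), from −0.0044 to 0.178 between WT rimeporide and WT DMSO (1 of 4), from 0.0125 to 0.183 between KO and WT rimeporide and from 0.0157 to 0.212 between KO and WT DMSO (2 of 4 each). The own number correlated best for 3, 3, 3 and 2 of 4 libraries in these comparisons, a hint from the data and not the design. With a replicate block, 6 members passed in KO against WT with DMSO (Nr1h2, edgeR adjusted p = 0.0161, and Apoe, 0.0232, were gained), and 3 passed with rimeporide in KO. The shares of all genes called in those comparisons under the block are not given here. The 6 and the 3 are therefore not read as a result about the members. Calls over all genes with the block were 8 for rimeporide in WT, 1275 averaged and 690 for the interaction. Nr1h3 rests on 1 to 31 counts a library.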
